A study of Homo sapiens with 24 samples.

Results

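The genes examined here were 8 that set where a B cell sits in a lymphoid organ: the chemokine receptors CXCR4, CXCR5 and CCR7, the oxysterol receptor GPR183, the sphingosine-1-phosphate receptors S1PR1 and S1PR2, the receptor P2RY8 and the G protein subunit GNA13. They were 8 of 20144 protein-coding genes. Accessible regions were assigned to a gene when they lay within 50 kb of an annotated transcription start site (TSS) or overlapped the gene body. A region within 1 kb of a TSS of the gene was counted as a promoter region and the others as distal. Of 26369 distinct regions listed as changed anywhere in the experiment, 34 met this rule. They carried 58 of the 37071 calls.

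Chromatin accessibility was profiled by ATAC-seq, in which a transposase cuts DNA that is open, in VAL and OCI-LY3, a pair of human diffuse large B-cell lymphoma (DLBCL) cell lines. Cells of each line received 30 nM of AZD4573, an inhibitor of the transcriptional kinase CDK9, for 3 or 8 h, and the 0 h cells received none. There were 4 libraries in each of the 6 groups and 24 in all. By the labels, 2 libraries of each group were made by a standard protocol from 50000 cells and 2 by Fast-ATAC from 5000 cells (the protocol text gives 50000 cells for Fast-ATAC), and the deposited lists name the control DMSO. Each treated time was compared with 0 h of the same line, so both comparisons within a line used 1 set of control libraries. Which of the 4 libraries of a group entered a comparison is not stated in the study's methods.

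A call here is the presence of a region in a list of regions whose accessibility was higher (increased) or lower (decreased) than at 0 h, by more than 1.5-fold and at an adjusted p limit given as 0.01 in the methods. The lists hold coordinates on hg19 and no value per library, so they give no depth, spread between libraries, size of change or level at 0 h, and B-cell markers could not be checked from them. Values in the supplementary tables of the study were not used here. A region absent from a list may be closed, open and unchanged, or short of the limits. The lists held 5331 regions in VAL after 3 h, 20381 in VAL after 8 h, 3529 in OCI-LY3 after 3 h and 7830 in OCI-LY3 after 8 h, of which 66.5%, 54.6%, 52.5% and 55.8% were increased.

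B cells find their niches by following gradients. CXCR5 draws them into follicles, CCR7 towards the T-cell zone, CXCR4 to the dark zone of the germinal center, and GPR183 to the outer follicle, while S1PR1 carries them out of the organ into lymph or blood. S1PR2 and P2RY8 act the other way: both signal through the G protein subunit encoded by GNA13 to restrain migration and hold germinal center B cells in place, and this confinement arm is a known target of mutation in germinal center lymphomas.

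The sequences of 3 of the 5 promoters that were called are given first, as examples. The windows of the other 2, at CXCR5 and CCR7, are not reported here, so no order of promoters should be read from these 3. Over the whole called promoter regions GC content was 35.7% at GPR183 (decreased), and 49.4% at CXCR5, 54.0% at CCR7, 66.0% at GNA13 and 66.4% at S1PR2 (all increased). Each is the 250 bases just upstream of the canonical TSS, inside the called region, 5′ to 3′ on the strand of the gene, from GRCh37. Capitals mark motif matches on either strand, and no matches overlap.
GPR183 promoter, chr13:99959654-99959903, minus strand: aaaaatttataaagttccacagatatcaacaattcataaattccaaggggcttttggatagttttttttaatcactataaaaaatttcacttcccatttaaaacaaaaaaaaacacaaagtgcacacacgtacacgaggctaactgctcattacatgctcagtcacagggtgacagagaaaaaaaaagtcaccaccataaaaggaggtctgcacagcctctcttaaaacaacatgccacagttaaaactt
S1PR2 promoter, chr19:10342008-10342257, minus strand: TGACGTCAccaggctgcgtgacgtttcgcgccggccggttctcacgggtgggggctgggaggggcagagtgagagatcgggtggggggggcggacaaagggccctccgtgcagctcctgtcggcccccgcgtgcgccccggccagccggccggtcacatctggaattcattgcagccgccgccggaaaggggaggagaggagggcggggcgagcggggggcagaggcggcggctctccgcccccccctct
GNA13 promoter, chr17:63052859-63053108, minus strand: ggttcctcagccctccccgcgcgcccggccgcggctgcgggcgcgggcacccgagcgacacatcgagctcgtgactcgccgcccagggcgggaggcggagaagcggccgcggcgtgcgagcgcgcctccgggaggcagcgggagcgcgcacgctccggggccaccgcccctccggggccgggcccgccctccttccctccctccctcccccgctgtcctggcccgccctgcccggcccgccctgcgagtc
The GC content of these windows was 34.4% for GPR183, 74.0% for S1PR2 and 82.0% for GNA13, beside a median of 63.2% over 19862 protein-coding promoters of this length. The number of CG dinucleotides ranged from 2 at GPR183 to 27 at S1PR2 and 39 at GNA13. S1PR2 opened with a CRE match (TGACGTCA) at positions 1 to 8, held by 2.4% of all these promoters. GPR183 and GNA13 held no match to any of the 10 motifs searched. The promoters of CXCR4, S1PR1 and P2RY8 were in no list.

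For each gene with a distal call, the distal region called in the most comparisons is represented by its central 300 bases in the same format, since most calls at these genes were distal. Ties, which occurred at CXCR4, CXCR5, CCR7, GPR183 and S1PR2, went to the region nearest the canonical TSS.
CXCR4 distal, chr2:136867819-136868118, minus strand: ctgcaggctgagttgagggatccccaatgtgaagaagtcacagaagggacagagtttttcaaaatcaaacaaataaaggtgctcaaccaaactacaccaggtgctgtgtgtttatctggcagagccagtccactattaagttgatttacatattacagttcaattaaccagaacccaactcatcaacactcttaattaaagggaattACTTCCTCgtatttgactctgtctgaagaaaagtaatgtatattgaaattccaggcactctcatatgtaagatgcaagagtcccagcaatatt
CXCR5 distal, chr11:118763077-118763376, plus strand: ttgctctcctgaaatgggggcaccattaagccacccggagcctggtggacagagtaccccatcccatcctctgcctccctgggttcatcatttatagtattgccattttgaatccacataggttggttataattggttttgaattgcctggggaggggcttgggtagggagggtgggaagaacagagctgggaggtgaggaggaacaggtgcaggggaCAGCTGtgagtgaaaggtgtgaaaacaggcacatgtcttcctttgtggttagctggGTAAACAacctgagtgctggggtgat
CCR7 distal, chr17:38738422-38738721, minus strand: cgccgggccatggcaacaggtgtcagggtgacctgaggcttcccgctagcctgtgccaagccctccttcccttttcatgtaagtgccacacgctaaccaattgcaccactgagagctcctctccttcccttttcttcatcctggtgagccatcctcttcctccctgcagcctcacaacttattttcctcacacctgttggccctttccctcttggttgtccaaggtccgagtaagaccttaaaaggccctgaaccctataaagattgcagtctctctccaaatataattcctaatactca
GPR183 distal, chr13:99934457-99934756, minus strand: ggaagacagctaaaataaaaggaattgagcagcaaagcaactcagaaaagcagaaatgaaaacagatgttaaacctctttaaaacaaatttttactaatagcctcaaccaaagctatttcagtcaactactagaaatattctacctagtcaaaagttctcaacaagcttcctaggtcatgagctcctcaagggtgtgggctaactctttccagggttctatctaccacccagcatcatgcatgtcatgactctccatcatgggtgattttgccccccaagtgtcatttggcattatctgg
S1PR1 distal, chr1:101754108-101754407, plus strand: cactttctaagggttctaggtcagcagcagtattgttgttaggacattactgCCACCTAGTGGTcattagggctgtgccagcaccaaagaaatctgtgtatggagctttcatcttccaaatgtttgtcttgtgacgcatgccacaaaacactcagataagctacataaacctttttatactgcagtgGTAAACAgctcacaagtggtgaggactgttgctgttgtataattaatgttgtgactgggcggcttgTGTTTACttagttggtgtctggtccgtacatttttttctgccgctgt
S1PR2 distal, chr19:10346844-10347143, minus strand: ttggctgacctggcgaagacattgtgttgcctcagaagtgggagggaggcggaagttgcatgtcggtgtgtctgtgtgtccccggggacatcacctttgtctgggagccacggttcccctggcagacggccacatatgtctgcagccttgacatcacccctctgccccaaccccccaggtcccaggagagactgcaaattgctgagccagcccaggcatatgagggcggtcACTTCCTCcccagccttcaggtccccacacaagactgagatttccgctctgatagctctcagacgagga
GNA13 distal, chr17:63025745-63026044, minus strand: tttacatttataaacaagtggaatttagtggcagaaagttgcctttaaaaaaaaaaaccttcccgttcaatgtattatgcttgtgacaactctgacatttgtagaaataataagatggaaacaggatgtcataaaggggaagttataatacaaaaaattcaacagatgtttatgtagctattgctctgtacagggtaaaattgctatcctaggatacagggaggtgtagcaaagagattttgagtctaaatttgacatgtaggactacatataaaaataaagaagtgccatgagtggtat
The CXCR4 and S1PR2 windows each held an ETS match (GAGGAAGT, here on the opposite strand), present in 5.54% of all decreased and 2.86% of all increased regions in a window of this length. The CXCR5 window held a FOXO match (TGTTTAC) and an E-box (CAGCTG), present in 2.62% and 22.3% of increased regions. The S1PR1 window held a CTCF match, found in 7.5% of decreased regions, and FOXO matches at positions 188 to 194 and 254 to 260, the motif being found in 5.59%. The printed distal windows of CCR7, GPR183 and GNA13 held no match, while the tied regions of CCR7 and GPR183 that are not printed (chr17:38703447-38704757 and chr13:100007811-100009452) each held an E-box. A match describes letters in a window and not a bound factor.

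Across the 34 regions, 26 were increased and 8 decreased, and no gene had calls in both directions. CXCR5, CCR7, S1PR2 and GNA13 had only increased regions, GPR183, CXCR4 and S1PR1 only decreased ones, and P2RY8 had none. Among all protein-coding genes, 43.9% had only increased regions over the 4 comparisons, 19.1% only decreased, 12.1% both and 24.9% none. Of the increased regions 4 were promoters and 22 distal, and of the decreased regions 1 was a promoter and 7 distal. The increased regions lay 8 upstream of, 4 across and 14 downstream of the canonical TSS, with 8 overlapping the member gene itself. VAL after 8 h had 28 calls, OCI-LY3 after 8 h 16, VAL after 3 h 12 and OCI-LY3 after 3 h 2. No region was called in all 4 comparisons, 7 were called in 3, 10 in 2 and 17 in 1. How often all listed regions recurred in this way was not counted.

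**Figure D1:**
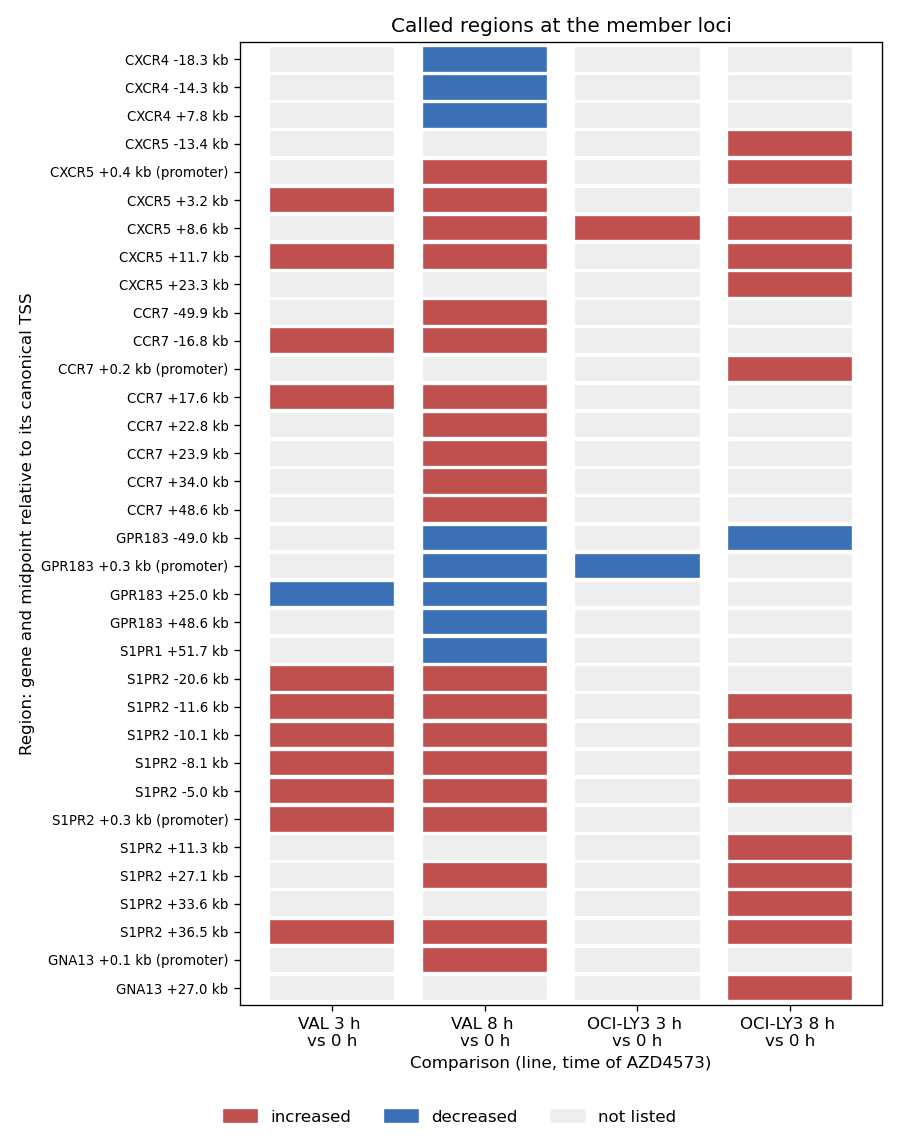
Each row is 1 of the 34 regions, named by its gene and the distance of its midpoint from the canonical TSS in kb, and each column is a comparison with 0 h. Red marks a region listed as increased, blue as decreased and grey as in neither list; the VAL 8 h column holds 28 calls and the OCI-LY3 3 h column 2.

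At the level of whole loci, the counts of members were compared with the share of all 20144 genes that had such a region in a window built the same way. Increased regions were present at 3 of 8 members in VAL after 3 h (CCR7, CXCR5 and S1PR2), beside 27.1% of all genes. The count was 4 of 8 in VAL after 8 h (GNA13 in addition), beside 48.3%. In OCI-LY3 it was 1 of 8 after 3 h (CXCR5), beside 19.7%, and 4 of 8 after 8 h (CCR7, CXCR5, GNA13 and S1PR2), beside 31.2%. With 8 genes, each gene is 12.5% of the set, and the locus counts of increased members in VAL and in OCI-LY3 after 3 h lay within about 1 gene of the background. Decreased regions were present at 1 member in VAL after 3 h (GPR183), beside 8.14% of genes, and at 3 in VAL after 8 h (CXCR4, GPR183 and S1PR1), beside 21.3%. In OCI-LY3 GPR183 was the 1 decreased member after 3 h, beside 10.0%, and after 8 h, beside 13.8%.

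Promoter calls were fewer. An increased promoter was found at 1 of 8 members in VAL after 3 h (S1PR2), beside 10.3% of genes, and at 3 of 8 in VAL after 8 h (CXCR5, S1PR2 and GNA13), beside 25.1%. It was found at 0 of 8 in OCI-LY3 after 3 h, beside 5.92%, and at 2 of 8 in OCI-LY3 after 8 h (CXCR5 and CCR7), beside 9.31%. A decreased promoter was rarer in the whole genome. It was listed for 0 members in VAL after 3 h, beside 0.323% of genes, for GPR183 in VAL after 8 h, beside 3.38%, for GPR183 in OCI-LY3 after 3 h, beside 0.695%, and for 0 members in OCI-LY3 after 8 h, beside 1.29%.

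**Figure D2:**
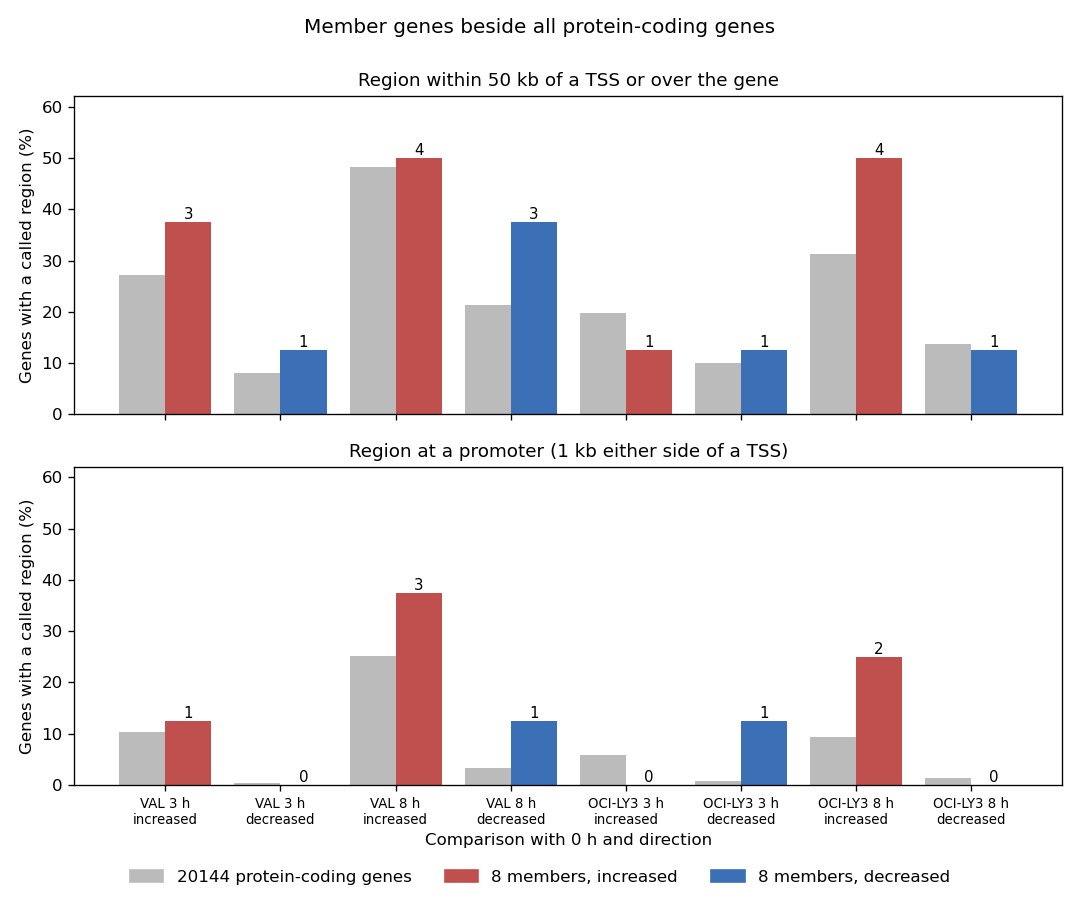
Percentage of genes with a called region in each comparison and direction (bars, from 0), for all 20144 protein-coding genes in grey and the 8 members in color, with the number of members above each bar. The upper panel counts regions within 50 kb of a TSS or over the gene and the lower panel promoter regions; for GPR183 alone among the members was a promoter decreased, where the grey bars are 3.38% and 0.695%.

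CXCR5, the receptor for CXCL13 that brings B cells into follicles, gained accessibility in both lines. Its gene lies on the plus strand of chromosome 11 (chr11:118754601-118768496), and 6 regions were called around it, all increased. The promoter region (chr11:118753825-118756079, over exon 1) was called after 8 h in VAL and in OCI-LY3 and after 3 h in neither. The region 8.6 kb downstream of the TSS (chr11:118762561-118763891, intronic) was called in VAL after 8 h and in OCI-LY3 after 3 and 8 h, and was the only increased region at any member in OCI-LY3 after 3 h. A region 11.7 kb downstream that overlaps exon 2, and also BCL9L, was called in VAL after 3 and 8 h and in OCI-LY3 after 8 h. The remaining regions were each called in 1 line: 3.2 kb downstream in VAL after 3 and 8 h, and 13.4 kb upstream and 23.3 kb downstream (over BCL9L) in OCI-LY3 after 8 h. The 5 increased regions of OCI-LY3 after 8 h were a number reached by 1.98% of all genes and by 5.77% of genes on chromosome 11. The 4 of VAL after 8 h were reached by 16.1% and 17.6%, the 2 of VAL after 3 h by 13.6% and 15.0%, and the 1 of OCI-LY3 after 3 h by 19.7% and 22.0%.

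CCR7, the receptor for CCL19 and CCL21, had increased regions in both lines. The gene lies on the minus strand (chr17:38710021-38721724) and 8 regions were called, all increased, of which 0 were called in both lines. OCI-LY3 had only 1 region to share, and of all increased regions of VAL after 8 h 20.9% were shared with OCI-LY3. In VAL the 7 distal regions were called after 8 h, and 2 of them, 16.8 kb upstream (chr17:38737961-38739181) and 17.6 kb downstream (chr17:38703447-38704757) of the TSS, were also called after 3 h. These 7 regions spanned from 49.9 kb upstream to 48.6 kb downstream, and all lay outside the gene body. In OCI-LY3 the promoter (chr17:38720929-38722153, over exon 1) was the only region called, after 8 h. The promoter was therefore absent from the VAL lists, and the distal regions were absent from the OCI-LY3 lists. Whether the lines differ in the size of these changes was not tested, since the lists hold no values. The 7 regions of VAL after 8 h were a number reached by 5.16% of all genes and 9.59% of genes on chromosome 17. The 2 of VAL after 3 h were reached by 13.6% and 34.0%, and the 1 of OCI-LY3 after 8 h by 31.2% and 44.5%.

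CXCR4, the receptor for CXCL12, had 3 decreased regions, all distal and all called only in VAL after 8 h. Its gene lies on the minus strand (chr2:136871919-136876747). A region 7.8 kb downstream of the TSS lay past the 3′ end of the gene (chr2:136867298-136868638), and the other 2 lay 14.3 kb (chr2:136889230-136890753) and 18.3 kb (chr2:136893310-136894762) upstream. No region overlapped the gene or its promoter, and the OCI-LY3 lists held none within the window: the nearest decreased regions there were 377.5 kb from the TSS after 3 h and 271.5 kb after 8 h. At least 3 decreased regions in VAL after 8 h were found at 4.78% of all genes and 8.69% of genes on chromosome 2.

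GPR183, also called EBI2, which senses oxysterols, was the only member with decreased regions in both lines and at both times. The gene lies on the minus strand within UBAC2 (chr13:99946793-99959653), and 4 decreased regions were called. The promoter region (chr13:99958550-99960225, over exon 1) was called in VAL after 8 h and in OCI-LY3 after 3 h, and not in OCI-LY3 after 8 h. A region 25.0 kb downstream (chr13:99933761-99935451) was called in VAL after 3 and 8 h. A region 49.0 kb upstream (chr13:100007811-100009452) was called after 8 h in both lines and was the only decreased region shared by the lines after 8 h. The last, 48.6 kb downstream, covers the promoter of GPR18, another G protein-coupled receptor, and was called in VAL after 8 h. All 4 overlap UBAC2 as well, and the 3 distal ones are assigned to GPR183 by distance alone. The 4 decreased regions in VAL after 8 h were a number reached by 2.6% of all genes and 6.52% of those on chromosome 13. The single decreased regions of the other comparisons were less unusual: at least 1 was present at 8.14% of all genes and 13.4% of chromosome 13 genes in VAL after 3 h, 10.0% and 25.5% in OCI-LY3 after 3 h, and 13.8% and 28.9% in OCI-LY3 after 8 h. The central 300 bases of the promoter region held an octamer match (ATGCAAAT) and an IRF match (GAAANNGAA), present in 5.36% and 14.9% of all decreased regions.

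**Figure D3:**
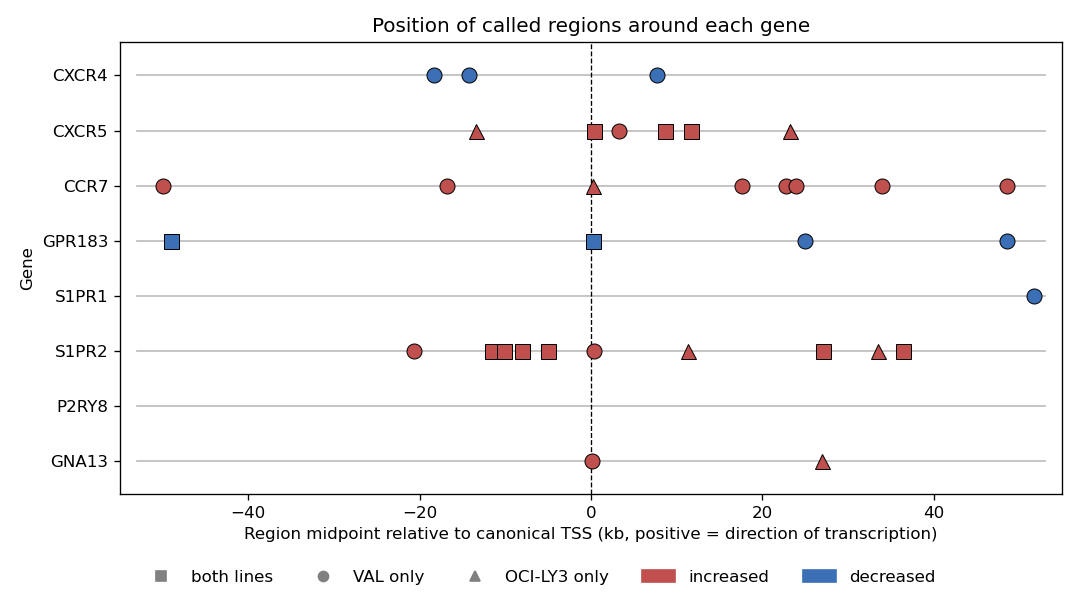
Midpoint of each called region relative to the canonical TSS of its gene in kb, positive in the direction of transcription, with 1 line per gene. Squares were called in both lines, circles in VAL only and triangles in OCI-LY3 only, red for increased and blue for decreased; S1PR2 carries 4 shared regions from 5.0 to 11.6 kb upstream, while CCR7 carries 7 circles and 1 triangle.

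S1PR1, the receptor for egress, and S1PR2, the receptor for confinement, bind the same lipid. Only decreased regions were listed for S1PR1 and only increased ones for S1PR2, but the S1PR1 call rests on 1 region. S1PR1 (plus strand, chr1:101702421-101709269) had 1 decreased region, called in VAL after 8 h, 49632 bp from the nearest TSS and so just inside the window. It lay 51.7 kb from the canonical TSS by its midpoint (chr1:101753523-101754991). With a window of 25 kb, or with the midpoint of a region required inside the window, S1PR1 had no call. A decreased region this close was present at 21.3% of all genes in that comparison, as above, and the promoter of S1PR1 was in no list.

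S1PR2 (minus strand, chr19:10332109-10342007) had 10 regions, the most of the members, all increased. There were 7 in VAL after 3 h, 8 in VAL after 8 h, 0 in OCI-LY3 after 3 h and 8 in OCI-LY3 after 8 h. The promoter region (chr19:10340829-10342586, over exon 1, and also overlapping DNMT1 and the promoter of MIR4322) was called in VAL after 3 and 8 h and was in neither OCI-LY3 list. A run of 4 regions between S1PR2 and MRPL4, at 5.0 kb (chr19:10346462-10347524), 8.1 kb (chr19:10349572-10350604), 10.1 kb (chr19:10351922-10352301) and 11.6 kb (chr19:10353296-10353854) upstream, was called in VAL at both times and in OCI-LY3 after 8 h. A region 36.5 kb downstream with the same 3 calls covers a promoter of DNMT1, the maintenance DNA methyltransferase, and a region 20.6 kb upstream covers the promoter of MRPL4, a mitochondrial ribosomal protein gene, and was called in VAL only. Regions 11.3 and 33.6 kb downstream were called only in OCI-LY3 after 8 h and 1 at 27.1 kb downstream in both lines after 8 h, all 3 within DNMT1. The nearest increased region of OCI-LY3 after 3 h was 84.0 kb from the TSS.

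The number of regions at S1PR2 was reached by few genes in OCI-LY3 after 8 h and in VAL after 3 h, and by more in VAL after 8 h. At least 8 increased regions in OCI-LY3 after 8 h were present at 21 of 20144 genes (0.104%) and at 8 of the 1480 genes on chromosome 19 (0.541%), with 9 the highest count of any gene. At least 7 in VAL after 3 h were present at 0.521% of all genes and 2.36% of those on chromosome 19. In VAL after 8 h at least 8 were present at 3.13% and 12.7%, and the highest count was 34. Neighbouring genes share these regions, so the genes in such counts are not independent.

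P2RY8, the second confinement receptor, had no called region in any of the 8 lists. The gene (minus strand, chrX:1581474-1656078) lies in the pseudoautosomal region, which hg19 carries on both X and Y. The nearest listed region was 1404.6 kb away. None of the 15 protein-coding genes there, from PLCXD1 to CD99, had a call, while 409 of the 850 genes annotated on X and not on Y (48.1%) and 75.1% of all genes had one. The authors kept only uniquely aligned reads, and reads from a sequence present in 2 copies of a reference are not unique. How the alignment treated both copies is not given in the sources used here, and its part in this result was not tested. An unchanged P2RY8 locus and an unmeasured one cannot be told apart in these lists.

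GNA13 (minus strand, chr17:63005407-63052858), through which S1PR2 and P2RY8 signal, had 2 increased regions, 1 in each line and both after 8 h. The promoter region (chr17:63051639-63053782, over exon 1) was called in VAL, and an intronic region 27.0 kb downstream of the TSS (chr17:63025318-63026471) in OCI-LY3. An increased region in VAL after 8 h was present at 84.0% of all genes on chromosome 17, and one in OCI-LY3 after 8 h at 44.5%.

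Sharing between the lines was compared as a share of each list. At 8 h, 9 increased member regions were common to both lines, which is 45.0% of the 20 in VAL and 60.0% of the 15 in OCI-LY3, where for all increased regions the shares were 20.9% and 53.3%. The shared regions were 6 of S1PR2 and 3 of CXCR5. The single shared decreased region, at GPR183, was 12.5% of the 8 in VAL and the only 1 in OCI-LY3 (all decreased regions, 11.8% and 31.6%). At 3 h no member region was common to the lines, with 11 increased in VAL and 1 in OCI-LY3 and 1 decreased in each. For all regions after 3 h the shares were 20.6% of VAL and 39.4% of OCI-LY3 for increased and 15.5% and 16.5% for decreased.

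The direction of the calls moved with the chromosome. On chromosome 17, which holds CCR7 and GNA13, 98.8% and 98.7% of all listed regions were increased in VAL after 3 and 8 h, and 89.4% and 94.0% in OCI-LY3. On chromosome 19, which holds S1PR2, these shares were 99.6% and 99.4%, and 97.2% and 98.7%. The 20 increased regions at CCR7, GNA13 and S1PR2 therefore have the direction that nearly all regions of their chromosomes have. On chromosome 13 (GPR183) 44.6% and 26.8% were increased in VAL and 16.2% and 20.6% in OCI-LY3, and on chromosome 2 (CXCR4) 24.4% in VAL after 8 h, so these decreased members also followed the majority there. Chromosome 11 was more even: 66.7% and 55.4% in VAL and 55.2% and 65.1% in OCI-LY3 were increased, and all 6 regions of CXCR5 were. S1PR1 had only 1 decreased region, at the edge of its window, in VAL after 8 h. In that comparison 1173 of 1867 regions on chromosome 1 (62.8%) were increased and 694 decreased. The part of the chromosome in these directions was not tested.

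**Figure D4:**
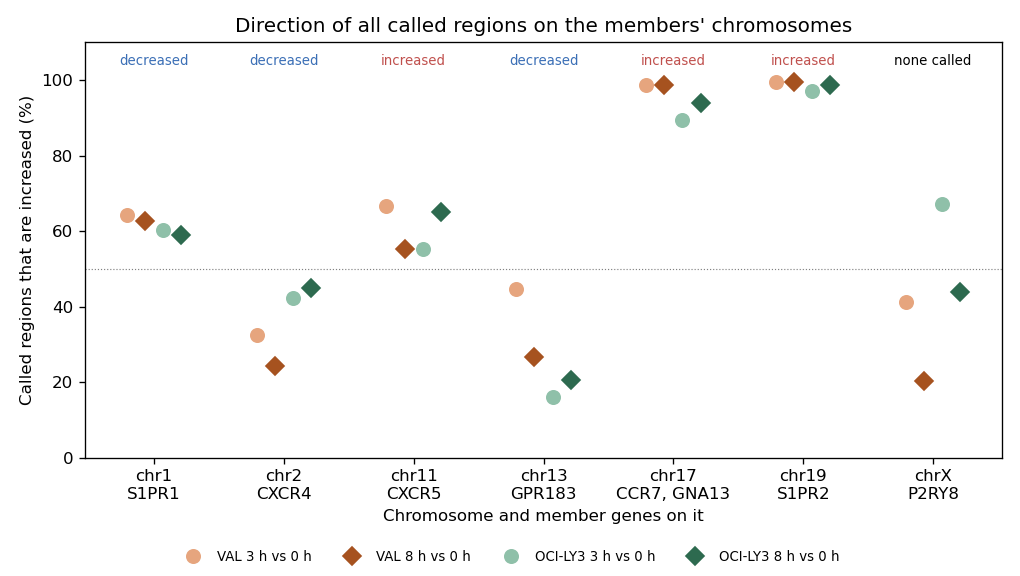
Percentage of all listed regions that are increased on each chromosome that holds a member, by comparison, with the direction of the member's own regions written above. Chromosomes 17 and 19 lie between 89.4% and 99.6%, chromosome 13 between 16.2% and 44.6%, and the dotted line marks 50%.

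Base composition moved with direction as well. The median GC content was 53.5% for the 26 increased member regions (range 38.5% to 66.4%) and 41.0% for the 8 decreased ones (35.6% to 48.5%). Over all regions the medians were 56.2% for increased and 41.4% for decreased. The increased regions of CXCR5 ranged from 49.4% to 61.0% and those of CCR7 from 47.4% to 57.8%, all above the median of decreased regions. The increased regions of GNA13 stood at 38.5% for the intronic one and 66.0% for the promoter, so the intronic one lay below the decreased median. Those of S1PR2 ranged from 40.2% to 66.4%, with 1 below the decreased median and 1 at 45.1%, inside the middle 50% of decreased regions (37.7% to 46.4%). The decreased promoter of GPR183 had 35.7%. Increased member regions had a median width of 1146.5 bp (380 to 2255) and decreased ones of 1579.0 bp (1341 to 1691), beside 1320.0 and 1300.0 bp over all regions. The part of GC content in the calls was not tested.

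**Figure D5:**
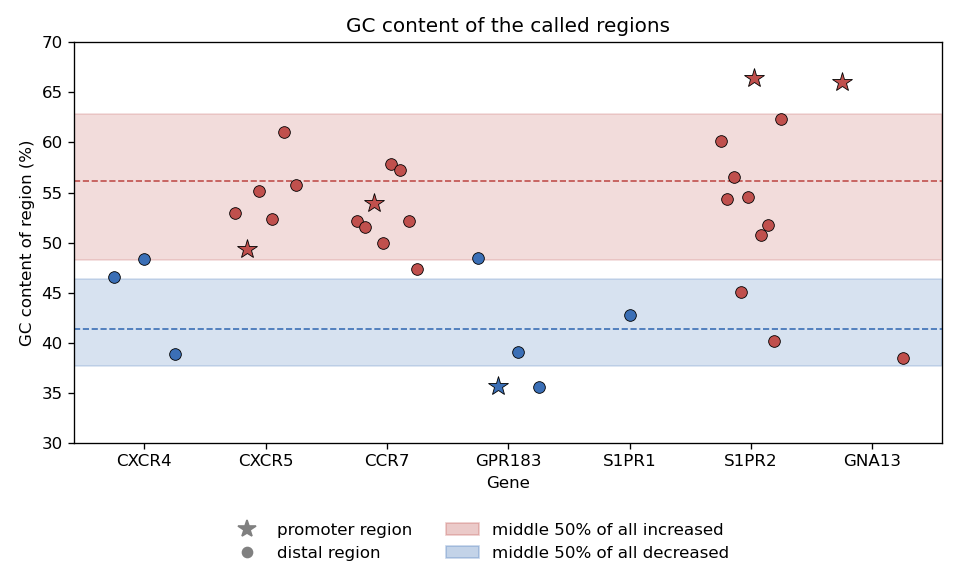
GC content in percent of each called region by gene, stars for promoter and circles for distal regions, red for increased and blue for decreased. Shaded bands hold the middle 50% of all increased (red) and all decreased (blue) regions and dashed lines their medians, 56.2% and 41.4%; the 6 regions of CXCR5 and 8 of CCR7 lie above the blue band.

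Motif matches in the central 300 bases of the member regions were few and were counted beside their share in all regions. Of the 26 increased regions, 5 held an E-box (22.3% of all increased regions), all at CXCR5 or CCR7, and 3 an NF-kB match (8.71%), at CXCR5, CCR7 and S1PR2. Octamer and ETS matches were in 2 each (2.69% and 2.86%), AP-1 (TGANTCA) and FOXO in 1 each (6.25% and 2.62%), and KLF (GGGNGTGGC), CRE, IRF and CTCF in 0 (4.35%, 0.862%, 6.26% and 3.98%). The 8 decreased regions held 1 match each of ETS, octamer, FOXO, IRF, E-box and CTCF (5.54%, 5.36%, 5.59%, 14.9%, 15.6% and 7.5% of all decreased regions) and 0 of AP-1, CRE, KLF and NF-kB (11.4%, 0.241%, 1.42% and 3.46%). The counts are too small to set the members apart from other regions.

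The other genes of the pathway were counted from a list of 68, by promoter call and then by locus. In VAL after 8 h an increased promoter was listed for 24 (35.3%, beside 25.1% of all genes) and a decreased one for 5 (7.35%, beside 3.38%). After 3 h the counts were 9 (13.2%, beside 10.3%) and 1 (1.47%, beside 0.323%). In OCI-LY3 they were 11 (16.2%, beside 9.31%) and 1 (1.47%, beside 1.29%) after 8 h, and 6 (8.82%, beside 5.92%) and 2 (2.94%, beside 0.695%) after 3 h. By locus, 26.5% and 58.8% of the 68 had an increased region in VAL after 3 and 8 h, beside 27.1% and 48.3%. In OCI-LY3 the shares were 20.6% and 39.7%, beside 19.7% and 31.2%. Decreased regions were present at 11.8% and 30.9% in VAL, beside 8.14% and 21.3%. In OCI-LY3 they were present at 13.2% and 20.6%, beside 10.0% and 13.8%. By group, the increased promoters of VAL after 8 h were 11 of 21 G protein signalling genes (52.4%), 6 of 14 ligands and ligand enzymes (42.9%), 2 of 8 adhesion genes (25.0%), 2 of 9 motility genes (22.2%), 2 of 10 receptors (20.0%) and 1 of 6 regulators (16.7%). By locus, 5 of the 6 regulators (83.3%) had a decreased region after 8 h in each line. An increased one was present at 2 (33.3%) in VAL and 4 (66.7%) in OCI-LY3. Differences between these groups were not tested. The 11 G protein signalling genes with such an increased promoter included ARHGEF1, the RhoGEF that links the GNA13 protein to RHOA, and RHOA itself. They also included GNAI2, which couples chemokine receptors, and GRK2, which desensitizes them. ARHGEF12, ROCK1 and ROCK2 had no increased promoter in any comparison. RHOA, RGS14 and GRK2 were listed as increased in all 4 comparisons. So were SPHK2, which makes sphingosine-1-phosphate, and ABCC1, which exports the P2RY8 ligand. The share of all genes with an increased promoter in all 4 comparisons was not counted, so no excess should be read from these genes. S1PR4 was increased in VAL after 3 and 8 h and in OCI-LY3 after 8 h, S1PR3 in VAL after 8 h. KLF2, the transcription factor that drives S1PR1 in lymphocytes, was increased in VAL after 8 h. The decreased promoters of VAL after 8 h included those of CCR6, RGS1, RGS18 and PRDM1, the plasma cell regulator. RGS1 and RGS18 were 2 of the 21 G protein signalling genes (9.52%, beside 3.38% of all genes). PRDM1 was also the decreased one in OCI-LY3 after 8 h. FOXP1 was decreased in VAL after 3 h, LPAR5 and ITGB2 in OCI-LY3 after 3 h, and ITGB2, an integrin subunit, was increased in VAL after 8 h.

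Patterns like those of the members were sought as the 8 counts of regions (4 comparisons by 2 directions) in loci on other chromosomes. On other chromosomes S1PR2 had no close match. The nearest gene there was KCNN3, at a summed difference of 5 regions against the 23 calls of S1PR2. Genes on chromosome 19 were left out of this search. Among them ICAM1, whose window overlaps that of S1PR2, had 7, 9, 1 and 5 increased regions in the 4 comparisons. S1PR2 had 7, 8, 0 and 8. A gene with many calls also has more room to differ than a gene with few. CXCR5, with 12 calls, was nearest to SNRNP200, ZBTB45 and TRIM28, which differed by 1. For CCR7 and GPR183 6 genes each had identical counts, among them UCKL1, DACT3 and JAG2 for CCR7 and NDUFAF4, TRAM1 and CCNL1 for GPR183. The patterns of CXCR4, GNA13 and S1PR1 were shared by 81, 209 and 856 genes.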

How the data were processed

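Per the labels and the study's methods, alignment by the authors was to hg19 (Bowtie2). Mitochondrial, non-unique and duplicate reads were dropped, MACS2 peaks (q 0.05) were called in every sample, and these were pooled into 1 set with bedtools. With DESeq2, the authors tested treated against 0 h libraries within a line. The study's methods describe only Fast-ATAC. They do not say whether all 4 libraries of a group entered a test or whether the protocol was modelled. For the ATAC-seq data, tool versions and any transposase offset are not given in the sources used here. The adjusted p limit is 0.01 in the methods and 0.05 in a legend. The deposited unit is the region coordinate in bp, other than any count or score: 8 lists, increased and decreased for each of 4 comparisons, with no value per library. Their starts count from 0 and were raised by 1. There were 0 columns of per-sample values left unused.

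Regions were joined to genes with the GENCODE annotation lifted to GRCh37 (TSS of transcripts tagged basic) and sequence was read from GRCh37 (same chromosome names, no region past a chromosome end), using Python 3.11.15, numpy 2.4.6, pandas 2.3.3 and matplotlib 3.10.9. Regions were the same between lists when their coordinates were equal. Motifs were searched on both strands with 0 mismatches, or 1 for CTCF. The join and the motif search were tested on simulated data. No test over samples could be made. The named genes were the 8 members, genes whose promoter a member region covers, the 68 pathway genes and, for likeness, the 3 genes on other chromosomes that differ least. The printed windows were to be the centers of regions, and for promoters the bases upstream of the TSS were taken in their place after some centers were seen to fall in a first exon or intron. A pathway gene and some promoter windows are not reported here. The members and lists were chosen with earlier results of these data known. The alternatives tried were other windows, promoter widths and TSS sets, merging of near regions, midpoints or any overlap in place of the main overlap rules, and leaving out chromosome 19.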

Additional observations from a re-analysis of the deposited data

How the results depend on the processing

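Over 84 alternatives, 70 counts stayed within 1.5 times the reported count and 14 did not. The 70 include counts that were 0 and stayed 0. They also include all changes of promoter width or TSS set, which altered no count. The tally alone is therefore no measure of stability. Counting only regions over the gene body or within 1 kb of a TSS left 3 of 11 increased and 0 of 1 decreased regions in VAL after 3 h, 6 of 20 and 1 of 8 in VAL after 8 h, and 5 of 15 and 0 of 1 in OCI-LY3 after 8 h. A window of 25 kb left 5 of 8 decreased regions in VAL after 8 h and 0 of 1 in OCI-LY3 after 8 h. Requiring the midpoint inside the window left 7 of 8 decreased regions in VAL after 8 h, without that of S1PR1. A window of 100 kb gave 2 increased and 3 decreased regions in OCI-LY3 after 3 h, in place of 1 and 1, and 3 decreased in place of 1 in OCI-LY3 after 8 h. Without chromosome 19, an alternative chosen after seeing the data, which removes S1PR2, 4 of 11 increased regions remained in VAL after 3 h, 12 of 20 in VAL after 8 h and 7 of 15 in OCI-LY3 after 8 h.

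No paired analysis was possible because per-library values are not part of the lists. For the same reason no replicate was left out, no stricter threshold was set and the standard and Fast-ATAC libraries were not compared. The lists give no depth behind the calls, so a gene without a call, such as P2RY8, cannot be told apart from one whose regions were not measurable.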

Other observations

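Some of the nearest listed regions lay outside the windows, most of them far outside. At S1PR1, OCI-LY3 after 8 h had a decreased region (chr1:101644019-101644910) 57.7 kb from the canonical TSS, on the other side of the gene from the decreased region of VAL, and OCI-LY3 after 3 h an increased region 124.0 kb away. At CXCR4 the nearest increased region of OCI-LY3 after 8 h was 142.2 kb away and that of VAL after 3 h 257.5 kb. At GPR183 the nearest increased region was the same in all 4 comparisons, 729.5 kb from the TSS (chr13:99227849-99230160). At CXCR5 the nearest decreased region was the same after 3 and 8 h in OCI-LY3, 352.1 kb away. The nearest decreased region to S1PR2 was at least 7633.8 kb away in every comparison, that distance being in OCI-LY3 after 3 h. GPR183 was the member with the lowest GC content upstream of its TSS, at 34.4%, while the promoters of CXCR4 and S1PR1, which were in no list, had 68.0% and 64.4%, and that of P2RY8 54.0%.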
